A study of Mus musculus with 24 samples.

Results

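The SLC25 family holds the carriers that move metabolites across the inner membrane of mitochondria, and its members were taken as all rows whose symbol is Slc25a followed by a number. The rule found 47 of the 54658 gene symbols in each of the 2 count tables, and all 47 were also found in the annotation used here. The RNA came from male C57BL/6 mice of 7 to 12 weeks that received either β-nicotinamide mononucleotide (β-NMN, a precursor of NAD+) at 185 mg/kg per day by intraperitoneal injection or saline (vehicle), with the first dose given when the peritonitis was induced and the last dose 24 h before euthanasia. Peritoneal cells were drawn by lavage after an injection of 1 ml of thioglycollate, plated, and exposed for 6 h to Escherichia coli at 15 bacteria per cell; the 6 vehicle and 6 β-NMN libraries were all from stimulated cells. Hearts and lungs came from the same 6 mice, 3 per treatment, after cecal ligation and puncture (CLP), a surgical model of polymicrobial sepsis. Per the paper, these organs were taken 24 h after CLP, so their mice had received 1 dose. The mice that gave the peritoneal cells were dosed daily for 3 days. Every mouse had peritonitis and the compared libraries held no unstimulated, sham or untreated control, so the values compare β-NMN with saline within inflammation and not with a healthy state. The labels of the organs named thioglycollate peritonitis in one field and CLP in the title and tissue fields, and 2 β-NMN hearts carried the same replicate number, so 1 of them is numbered here by its mouse.

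Each SLC25 protein is built of a repeated module and exchanges or co-transports a particular set of substrates: ADP for ATP, phosphate, tricarboxylic acid cycle intermediates, amino acids, acylcarnitines, cofactors, iron or NAD+. The ADP/ATP carriers and the phosphate carrier feed ATP synthase and hand its product to the cytosol, which makes them abundant in cardiac muscle. A few members lie elsewhere, such as Slc25a17 in peroxisomes and Slc25a46 in the outer mitochondrial membrane.

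Total counts were 31126823 to 112456050 per peritoneal library, 27319513 to 68523239 per heart and 8915366 to 28356786 per lung. The peritoneal libraries fell into a class of 5 over 70000000 counts (3 vehicle, 2 β-NMN) and a class of 7 below. Cardiomyocyte markers summed to 41470 to 65331 CPM (counts scaled to a common library total) in the hearts against at most 310 in the lungs, and lung epithelial markers to at least 43673 CPM in the lungs against at most 2.8 in the hearts. The heart and the lung of vehicle mouse 2 stood apart from the other libraries of their organ, and among the peritoneal libraries vehicle 3 and β-NMN 6 lay farthest from their group. CPM values were scaled by the trimmed mean of M-values (TMM), each table on its own, and levels are compared between genes only as CPM per kilobase of exon.

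In the vehicle group, the peritoneal cells used Slc25a5, the ADP/ATP carrier of most dividing cells, at the highest level of the family: 80.5 CPM per kilobase, or 26.4% of the family total. Slc25a3, the phosphate carrier, followed at 51.5, Slc25a37 (mitoferrin 1, an iron importer) at 28.7, the glutamate carrier Slc25a22 at 22.0 and the citrate carrier Slc25a1 at 17.2 CPM per kilobase. In vehicle hearts the order was led by Slc25a4, the ADP/ATP carrier of heart and muscle, at 2270 CPM per kilobase or 67.2% of the family total, ahead of Slc25a3 at 260, the oxoglutarate carrier Slc25a11 at 205, Slc25a5 at 145 and the orphan carrier Slc25a34 at 136. Vehicle lungs had no such dominant member, with Slc25a5 at 86.1, Slc25a4 at 64.1, Slc25a3 at 45 and the glutathione carrier Slc25a39 at 36.3 CPM per kilobase. Slc25a4 thus made up 67.2% of the family in hearts, 13.9% in lungs and 3.41% in peritoneal cells. Slc25a5 has a pseudogene in the same tables, and how reads that match both were counted is not stated. Summed over all members, the family stood at 1199 ± 67.9 CPM in vehicle and 1236 ± 53.8 CPM in β-NMN peritoneal cells (SD, n = 6 each), and the ranges of the groups overlapped.

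**Figure D1:**
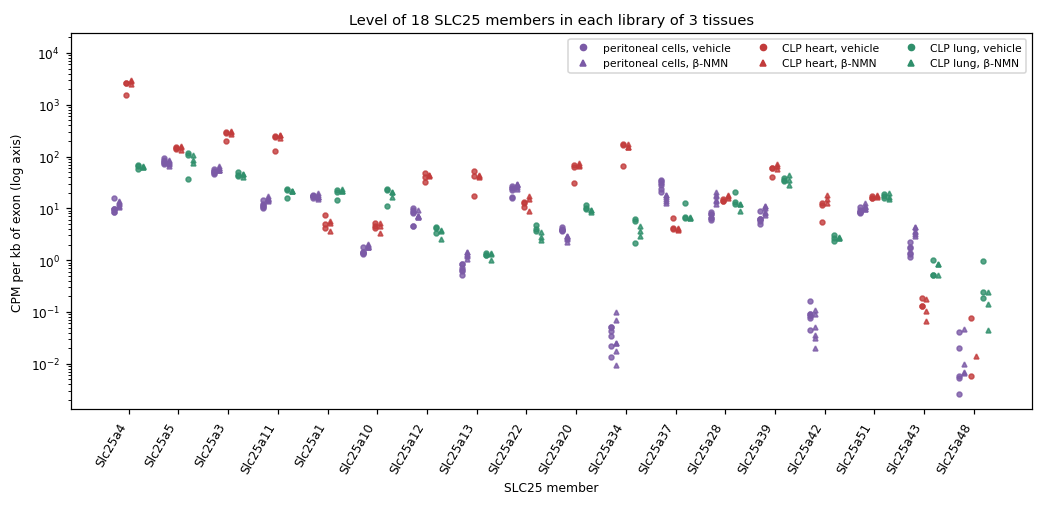
Levels of 18 SLC25 members in each library of peritoneal cells, hearts and lungs, as CPM per kilobase of exon on a log axis (vehicle as circles, β-NMN as triangles; libraries with 0 counts are not drawn). Slc25a4 stood far above the other members in hearts, while Slc25a5 led in the mean of vehicle peritoneal cells and vehicle lungs, though not in vehicle lung 2.

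The first comparison asked which carriers differed between the E. coli-stimulated peritoneal cells of β-NMN and of vehicle mice. Of the 47 members, 39 passed the filter on low counts, and 20 of them changed by edgeR's quasi-likelihood test with Benjamini-Hochberg adjustment over all 14985 genes: 13 rose and 7 fell in the β-NMN group. Of all genes tested, 51.6% were called, 23.7% higher and 27.9% lower, so the number of members called was near that background. The median log2 fold change was 0.18 over the 39 members and -0.02 over all genes tested. The peritoneal CPM of the treatment groups did not overlap for 10 members, beside 26.6% of all genes tested. Slc25a21, Slc25a41, Slc25a48 and Slc25a54 had under 10 reads in every peritoneal library, and Slc25a29, Slc25a31, Slc25a34 and Slc25a35 also stayed under the filter. Within the libraries over 70000000 counts 13 of the members tested were called, beside 30.5% of all genes, and within those below 10 were called, beside 27.9%. Slc25a13, Slc25a17, Slc25a20, Slc25a28, Slc25a33, Slc25a43 and Slc25a45 were called in all libraries and in both depth classes, and Slc25a10, Slc25a22, Slc25a32, Slc25a36, Slc25a51 and Slc25a53 were among those called in neither class alone. Slc25a24, Slc25a25 and Slc25a37 were not called within the deeper class, nor Slc25a2, Slc25a11 and Slc25a39 within the other. Without the low-count filter, Slc25a10, Slc25a22, Slc25a24, Slc25a32, Slc25a36, Slc25a51 and Slc25a53 lost their call.

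Marker RNA of several cell types also differed between the treatment groups in these plated cells. Summed macrophage markers ranged from 1751 to 2316 CPM in vehicle and from 2954 to 3564 CPM in β-NMN libraries, with 3 of 5 markers called higher. Neutrophil markers ranged from 476 to 988 CPM and from 327 to 456 CPM, with 4 of 5 called lower and 1 higher. Fibroblast markers ranged from 89.6 to 956 CPM and from 19.8 to 85.7 CPM (4 of 4 lower, vehicle 3 highest), and erythroid markers from 2.8 to 35.8 CPM and from 47.6 to 122 CPM (4 of 4 higher). T cell markers were low, from 3.03 to 9.64 CPM and from 0.884 to 2.57 CPM (4 of 4 lower). None of these 5 sums overlapped between the groups. Of the B cell markers 2 of 4 and of the endothelial markers 2 of 3 tested were lower, with overlapping sums. The part of these cell types in the changes of the carriers was not tested. In bulk RNA, fewer cells of a type and less RNA per cell cannot be told apart.

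**Figure D2:**
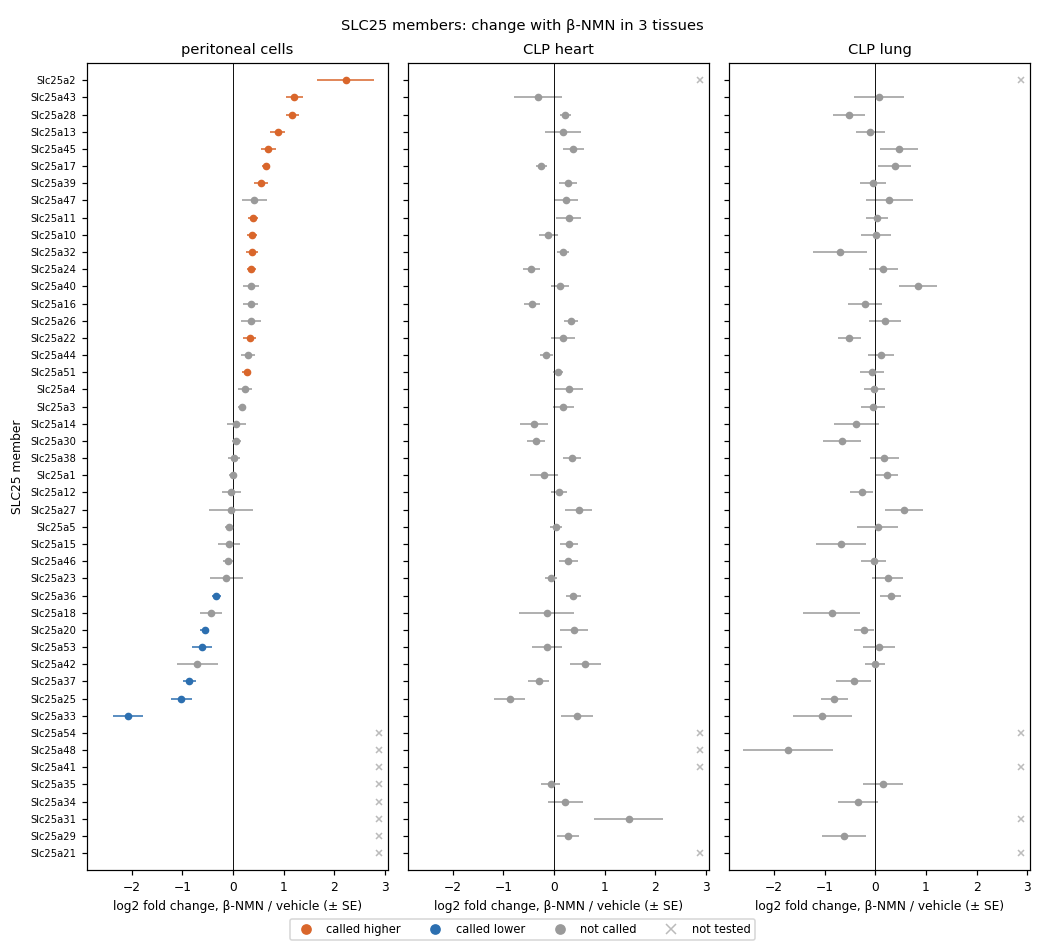
Log2 fold change of β-NMN against vehicle with its standard error for the SLC25 members, all but 1, in peritoneal cells, hearts and lungs (orange, called higher; blue, called lower; grey, not called; a cross at the right edge, not tested). Calls were made in peritoneal cells, where 13 members were higher and 7 lower (1 of these not drawn), and none in the 2 organs.

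The promoter windows of 4 carriers are shown because their genes gave the largest changes of nucleotide and iron carriers in peritoneal cells, or because a cyclic AMP response element (CRE) lies in the window. Each runs from 250 bases before to 50 bases after the RefSeq start in GRCm38.p6, all on the minus strand, and capitals mark TGACGTCA (the palindromic CRE) or CACGTG (an E-box).
Slc25a25, chr2:32424017-32424316: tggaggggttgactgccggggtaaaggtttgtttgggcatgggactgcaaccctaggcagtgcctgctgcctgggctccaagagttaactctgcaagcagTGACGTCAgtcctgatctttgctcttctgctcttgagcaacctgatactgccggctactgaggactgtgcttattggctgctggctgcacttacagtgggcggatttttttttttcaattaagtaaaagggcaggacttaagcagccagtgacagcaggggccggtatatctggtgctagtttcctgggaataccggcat
Slc25a36, chr9:97110992-97111291: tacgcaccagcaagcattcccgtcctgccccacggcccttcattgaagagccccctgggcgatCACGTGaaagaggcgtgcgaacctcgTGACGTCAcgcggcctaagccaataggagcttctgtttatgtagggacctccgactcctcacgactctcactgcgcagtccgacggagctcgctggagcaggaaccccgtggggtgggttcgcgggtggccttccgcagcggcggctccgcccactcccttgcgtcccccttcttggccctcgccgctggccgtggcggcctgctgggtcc
Slc25a33, chr4:149774218-149774517: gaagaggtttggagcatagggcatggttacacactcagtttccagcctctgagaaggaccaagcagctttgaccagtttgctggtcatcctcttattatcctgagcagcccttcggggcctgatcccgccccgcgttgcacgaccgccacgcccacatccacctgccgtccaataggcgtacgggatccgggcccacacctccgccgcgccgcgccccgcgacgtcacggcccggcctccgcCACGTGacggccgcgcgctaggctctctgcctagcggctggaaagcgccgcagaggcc
Slc25a28, chr19:43674832-43675131: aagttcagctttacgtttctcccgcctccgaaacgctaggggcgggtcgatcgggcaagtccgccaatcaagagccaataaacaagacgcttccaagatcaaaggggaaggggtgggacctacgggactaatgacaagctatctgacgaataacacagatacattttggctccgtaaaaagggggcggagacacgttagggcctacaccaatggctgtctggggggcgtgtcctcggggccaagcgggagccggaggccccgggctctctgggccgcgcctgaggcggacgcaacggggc
The CRE began 150 bases before the start of Slc25a25, in 1 of its 3 windows, and 161 bases before that of Slc25a36, which also had an E-box 187 bases before the start. Slc25a33 had an E-box 8 bases before its start, and neither motif was in the Slc25a28 window. RefSeq windows matched 36 of the 47 members and 27025 genes in all. TGACGTCA on either strand, a palindrome, was present for these 2 members, for 2 of the 5 members with a window that fell in peritoneal cells, 0 of the 10 that rose and 0 of the 15 that were not called, and for 2.03% of all genes. Across the 36 members CACGTG was found in 7 (8.09% of all genes), TGANTCA in 2 (8.97%), CCAAT in 19 (41.1%), GGGCGG in 30 (38.2%), CCGGAAGT in 1 (4.31%), and TCAAGGTCA and the NRF1 palindrome in 0 (0.466% and 1.07%), each on either strand. The 8 motifs were chosen after the windows were read, so these shares are a description and no test. No motif searched contains another, and a match describes letters in the window only.

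Among the pyrimidine nucleotide carriers, both measured members were lower after β-NMN. Slc25a33 (chr4:149744036-149774277, minus strand, GRCm38), which imports pyrimidine nucleotides for mitochondrial DNA and RNA synthesis, had 2.05, 3.12 and 7.03 CPM as lowest, median and highest value in vehicle and 0.638, 0.751 and 1.49 in β-NMN libraries. Every β-NMN library was below every vehicle library, and vehicle 4 was the highest. The log2 fold change was -2.08 ± 0.29 (SE, edgeR adjusted p = 4.43e-05), with means of 3.63 ± 1.76 and 0.868 ± 0.311 CPM (SD, n = 6 each). An antisense gene overlaps 14.9% of its exons, and the counts do not tell the strands apart where counting ignored strand, a setting that is not stated. Slc25a36 (chr9:97074961-97111157, minus strand), with a related substrate range, moved less: 25.9, 29.3 and 33.9 CPM in vehicle against 21.1, 23.4 and 25.2 in β-NMN libraries (log2 fold change -0.33 ± 0.08, edgeR adjusted p = 0.00389). Its groups did not overlap either. As the 2 genes fell by different amounts, the ratio of Slc25a36 to Slc25a33 per kilobase was 0.949 to 2.54 in vehicle and 3.31 to 7.21 in β-NMN libraries, a difference of 1.67 on the log2 scale. The exact permutation test, two-sided, gave 0.0022, the smallest p that 6 against 6 libraries allow, or 0.0108 adjusted over the 15 ratio tests made (5 ratios in 3 tissues).

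The iron carriers moved in opposite directions. Slc25a28 (mitoferrin 2; chr19:43663801-43674881, minus strand), the more widely expressed importer of iron for heme and iron-sulfur clusters, had 22.2, 26.7 and 32.3 CPM in vehicle and 46.3, 59.7 and 77.7 in β-NMN libraries. The lowest β-NMN library was above the highest vehicle library, with a log2 fold change of 1.17 ± 0.13 (edgeR adjusted p = 5.55e-06). Slc25a37 (mitoferrin 1; chr14:69241848-69285112, minus strand), the importer best known from red cell precursors, had 126, 176 and 212 CPM in vehicle and 77.8, 95.3 and 110 in β-NMN libraries. It fell by 0.86 ± 0.13 on the log2 scale (edgeR adjusted p = 9.78e-05), again with no overlap. The ratio of Slc25a37 to Slc25a28 per kilobase was 3.03 to 5.74 in vehicle and 0.88 to 1.09 in β-NMN libraries (log2 difference -2.01, exact permutation p = 0.0022, adjusted 0.0108). A list of mitochondrial iron users gave 8 higher and 1 lower of 15 tested, at a median log2 fold change of 0.28, beside 23.7% higher and 27.9% lower and a median of -0.02 over all genes: the cysteine desulfurase Nfs1 rose by 0.69, ferrochelatase (Fech) by 0.59 and protoporphyrinogen oxidase (Ppox) by 0.60 on the log2 scale, while the housekeeping aminolevulinate synthase Alas1 fell by 0.33. Alas2, the erythroid form of that enzyme, rose by 2.58.

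Among the carriers of adenine nucleotides and phosphate, Slc25a25 fell, Slc25a24 rose, and the abundant exchangers were not called. Slc25a24 and Slc25a25 both exchange ATP-Mg for phosphate under control of calcium and thereby set the adenine nucleotide pool of the matrix. Slc25a25 (chr2:32414487-32451445, minus strand) had 25.3, 34.8 and 62.7 CPM in vehicle and 16.6, 19.0 and 28.6 in β-NMN libraries, a log2 fold change of -1.02 ± 0.21 (edgeR adjusted p = 0.000998). Vehicle 3 and 4 were the highest at 62.7 and 56.7 CPM, and the groups overlapped. Slc25a24 (chr3:109123149-109168457, plus strand) had 11.3, 12.1 and 13.3 CPM in vehicle and 14.1, 15.7 and 17.2 in β-NMN libraries, without overlap (log2 fold change 0.36 ± 0.09, edgeR adjusted p = 0.0032). That call was lost without the low-count filter and within the libraries over 70000000 counts. The ratio of Slc25a24 to Slc25a25 per kilobase was 0.455 to 1.02 in vehicle and 1.16 to 2.37 in β-NMN libraries (log2 difference 1.33, exact permutation p = 0.0022, adjusted 0.0108).

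The phosphate carrier Slc25a3 had 259, 285 and 325 CPM in vehicle and 301, 317 and 359 in β-NMN libraries (log2 fold change 0.18 ± 0.08, edgeR adjusted p = 0.0825). Slc25a4 had 20.2, 22.9 and 37.3 CPM and 25.4, 29.0 and 32.8 CPM (0.24 ± 0.14, edgeR adjusted p = 0.154), with vehicle 3 highest. Both passed the threshold when vehicle 3 was left out, at 0.26 for Slc25a3 and 0.44 for Slc25a4, without vehicle 3 and 4 together, and within the libraries over 70000000 counts. Slc25a3 also passed without β-NMN 4 or β-NMN 6 and with depth class as a term. Slc25a5 had 117, 131 and 152 CPM against 109, 128 and 140 CPM (-0.08 ± 0.09, edgeR adjusted p = 0.497). The ratio of Slc25a4 to Slc25a5 per kilobase was 0.0995 to 0.172 in vehicle and 0.155 to 0.174 in β-NMN libraries (log2 difference 0.35, exact permutation p = 0.013, adjusted 0.0487), and that call was lost in 10 of the 12 tests that left out 1 library.

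Carriers of dicarboxylates, aspartate and glutamate were higher where they were called. The aspartate/glutamate carriers Slc25a12 (aralar) and Slc25a13 (citrin) are the calcium-controlled step of the malate-aspartate shuttle. Slc25a13 (chr6:6041218-6217173, minus strand) had 1.98, 2.60 and 3.23 CPM in vehicle and 3.93, 4.94 and 5.56 in β-NMN libraries, without overlap (log2 fold change 0.88 ± 0.14, edgeR adjusted p = 0.000126). Slc25a12 (chr2:71271063-71367749, minus strand), the more abundant of the pair, had 33.8, 61.3 and 74.7 CPM in vehicle and 49.6, 51.9 and 68.6 CPM in β-NMN libraries. Vehicle 3 and 4 both stood at 33.8 CPM and the other 4 vehicle libraries at 59.6 to 74.7 (log2 fold change -0.04 ± 0.19, edgeR adjusted p = 0.886). Without these 2 libraries the log2 fold change was -0.25 and passed the threshold. The ratio of Slc25a12 to Slc25a13 per kilobase was 5.39 to 19.4 in vehicle and 4.61 to 7.01 in β-NMN libraries, and its log2 difference of -0.87 missed the threshold after adjustment (exact permutation p = 0.039, adjusted 0.117).

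Slc25a22, a glutamate carrier, had 94.4, 142 and 160 CPM in vehicle and 145, 169 and 179 in β-NMN libraries (log2 fold change 0.33 ± 0.13, edgeR adjusted p = 0.043). Vehicle 3 and 4 were the lowest of their group at 99.2 and 94.4 CPM, and the call was lost without vehicle 2, β-NMN 1, β-NMN 2 or β-NMN 6, without vehicle 3 and 4 together (0.20), without the low-count filter and within either depth class. The dicarboxylate carrier Slc25a10 had 4.53, 4.84 and 6.20 CPM against 6.16, 6.40 and 6.99 (0.38 ± 0.10, edgeR adjusted p = 0.00651), and Slc25a11, which exchanges malate for oxoglutarate in the malate-aspartate shuttle, had 21.3, 24.2 and 31.1 CPM against 29.8, 31.8 and 36.6 (0.39 ± 0.10, edgeR adjusted p = 0.00336). In both of these genes 1 vehicle library reached into the β-NMN range. The citrate carrier Slc25a1, at 34.8 to 39.0 CPM in vehicle and 32.5 to 42.5 CPM in β-NMN libraries, had a log2 fold change of -0.01 ± 0.08 (edgeR adjusted p = 0.959). Of 5 tested enzymes of the aspartate-malate and glycerophosphate shuttles, Got2 and Mdh1 rose by 0.32 and 0.48 on the log2 scale and Gpd2 fell by 0.61, with a list median of -0.14, beside 23.7% of all genes higher and 27.9% lower.

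In the group of amino acid and carnitine carriers, Slc25a20 fell and Slc25a2 rose. Slc25a20 (chr9:108662088-108684641), which exchanges acylcarnitine for carnitine on the way to fatty acid oxidation, had 17.9, 18.6 and 21.1 CPM in vehicle and 10.8, 13.2 and 14.1 in β-NMN libraries. Its groups did not overlap, and the log2 fold change was -0.56 ± 0.09 (edgeR adjusted p = 9.05e-05). Among the enzymes and transporters of carnitine, beside 23.7% of all genes higher, 2 of 5 tested rose, Cpt1a by 0.27 and the plasma membrane carnitine transporter Slc22a5 by 0.37, and 0 fell. Slc25a15, the ornithine carrier of the urea cycle, had a log2 fold change of -0.08 ± 0.22 (edgeR adjusted p = 0.793). Of 6 urea cycle and ornithine enzymes tested, 5 fell (median -1.08), beside 27.9% of all genes, among them Odc1 by 1.53. Slc25a2, a second ornithine carrier, was called higher on 4 to 22 counts per vehicle and 2 to 117 counts per β-NMN library, and the groups overlapped.

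Of the carriers of cofactors, glutathione and NAD+, 4 rose. Slc25a51, the importer of NAD+ into mitochondria (chr4:45395923-45408766), had 44.3, 47.8 and 57.2 CPM in vehicle and 54.0, 57.7 and 68.5 in β-NMN libraries, overlapping in range (log2 fold change 0.27 ± 0.08, edgeR adjusted p = 0.0155). Slc25a17 (chr15:81318911-81360812), a peroxisomal carrier of coenzyme A, FAD and NAD+, had 13.8, 14.4 and 17.2 CPM in vehicle and 21.7, 22.6 and 24.9 in β-NMN libraries. Every β-NMN library exceeded every vehicle library in this gene (0.65 ± 0.08, edgeR adjusted p = 1.51e-05). Slc25a39 (chr11:102402985-102407946), which imports glutathione, had 14.0, 17.1 and 24.9 CPM against 20.8, 25.6 and 30.8 CPM (0.55 ± 0.14, edgeR adjusted p = 0.0042), with vehicle 3 the highest of its group. Its relative Slc25a40 had a log2 fold change of 0.36 ± 0.15 and missed the threshold (edgeR adjusted p = 0.06), which it passed without vehicle 1 or β-NMN 1, with DESeq2 size factors and with depth class as a term. Slc25a32, the folate and FAD carrier, rose by 0.37 on the log2 scale.

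**Figure D3:**
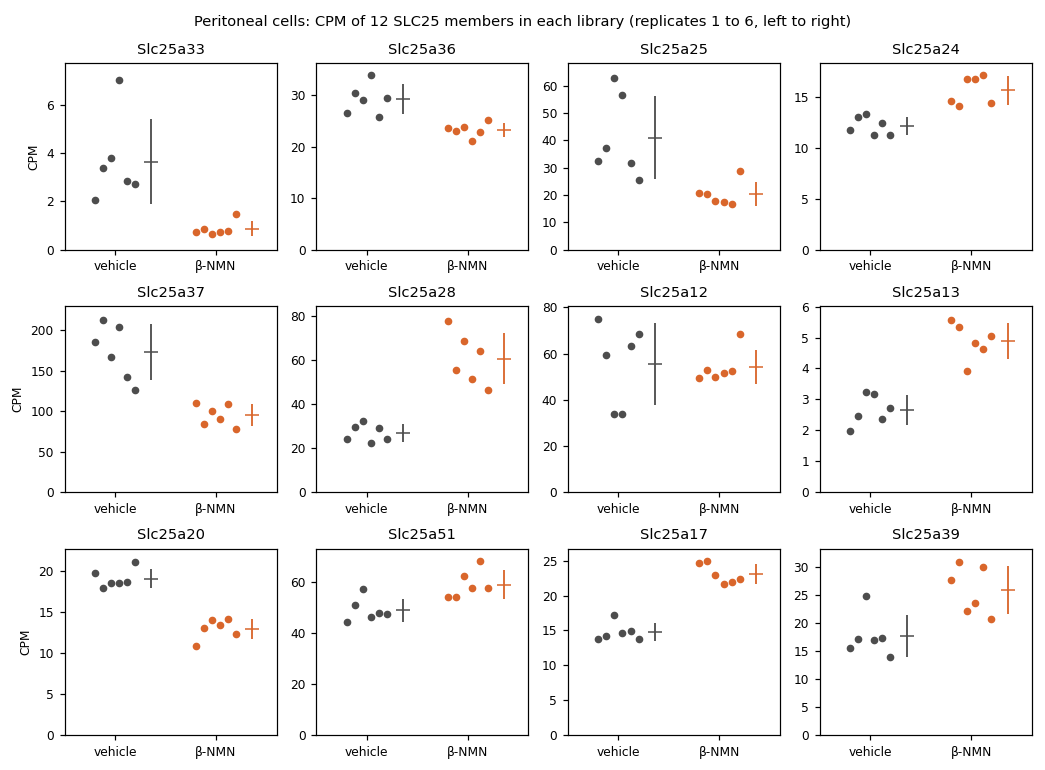
CPM of 12 SLC25 members in each peritoneal library (points; replicates 1 to 6 from left to right) with the mean and SD of vehicle and β-NMN beside them. Slc25a33, Slc25a37, Slc25a36 and Slc25a20 were lower and Slc25a28, Slc25a13, Slc25a17 and Slc25a24 higher in every β-NMN library than in any vehicle library, while Slc25a25, Slc25a12, Slc25a39 and Slc25a51 overlapped.

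Carriers of less settled function included Slc25a43, at 2.01, 2.77 and 3.95 CPM in vehicle and 5.28, 6.34 and 7.77 in β-NMN libraries, without overlap (log2 fold change 1.21 ± 0.17, edgeR adjusted p = 3.47e-05). Its gene (chrX:36743659-36777202) lies beside Slc25a5 (chrX:36795651-36798807), which was not called. Slc25a45 had 3.44, 3.93 and 4.95 CPM against 4.61, 6.08 and 8.38 (0.70 ± 0.15, edgeR adjusted p = 0.00142), and Slc25a53 fell from a median of 2.24 to 1.72 CPM (-0.61 ± 0.20, edgeR adjusted p = 0.0173). The uncoupling protein-like members Slc25a14, Slc25a27 and Slc25a30 were not called, whereas Ucp2, a family protein under another name, rose by 0.63. The mitochondrial pyruvate carrier, which is no SLC25 protein, rose in both subunits, Mpc1 by 0.90 and Mpc2 by 0.57. Of 14 tested genes of the machinery that brings carriers into the inner membrane, 9 rose and 0 fell (median 0.33), beside the same 23.7% and 27.9% of all genes, with Agk at 1.40, Timm10b at 1.16 and Timm29 at 0.63 on the log2 scale. A yardstick list of other mitochondrial membrane and matrix genes held 5 higher and 4 lower of 17, against that same background. Its median was 0.05 on the log2 scale.

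In the hearts, the comparison of 3 β-NMN with 3 vehicle mice called 0 of 16245 genes with edgeR's quasi-likelihood test (0%), so 0 of the 42 members tested passed. At an unadjusted p under 0.05 there were 4 members, beside 11.3% of all genes tested (1837 of 16245). Leaving out 1 heart moved the number of members between 0 and 9, and the number of all genes moved too. It was 0 without β-NMN 2 (beside 901 of 16419 genes) and 9 without vehicle 3 (2721 of 17142). It was 1 without vehicle 1 (2034 of 16388) and 2 without β-NMN 1 (888 of 17047). DESeq2 called 267 genes, among them 0 members. Slc25a25 was measured at 24.4, 32.8 and 16.5 CPM in vehicle hearts 1 to 3 and at 16.8, 9.71 and 14.0 CPM in β-NMN hearts (log2 fold change -0.88 ± 0.30, unadjusted p = 0.024 by edgeR). Its groups touched, as β-NMN 1 was above vehicle 3. Slc25a24 was measured at 14.4, 16.2 and 12.8 CPM in vehicle and 9.31, 11.1 and 11.6 CPM in β-NMN hearts (-0.45 ± 0.16, unadjusted p = 0.0269 by edgeR). Slc25a16 was measured at 51.5, 54.0 and 45.3 CPM and 39.0, 30.9 and 42.8 CPM (-0.43 ± 0.16, unadjusted p = 0.0301 by edgeR). These 2 genes did not overlap between the groups. Slc25a36 was measured at 43.2, 35.8 and 51.4 CPM in vehicle and 54.2, 58.6 and 57.4 CPM in β-NMN hearts (0.38 ± 0.15, unadjusted p = 0.0378 by edgeR), again without overlap. Slc25a17, the fifth by p, had 21.3, 20.5 and 19.7 CPM against 17.3, 17 and 17.4 (-0.26, unadjusted p = 0.0506 by edgeR). The smallest adjusted p of any member was 0.435, and the groups did not overlap for 8 members, beside 23% of all genes.

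The main energy carriers of the heart varied most through vehicle mouse 2. Slc25a4 was at 6314, 3648 and 6060 CPM in vehicle hearts and at 6775, 6963 and 5963 CPM in β-NMN hearts. Slc25a3 was at 1642, 1091 and 1594 CPM and at 1715, 1684 and 1526 CPM. In both genes vehicle mouse 2 was the lowest, and the other 2 vehicle hearts lay within the β-NMN range. Slc25a20 (326, 150 and 304 CPM in vehicle, 338, 367 and 317 in β-NMN), Slc25a13 (199, 66.5 and 159; 167, 157 and 155) and Slc25a34 (451, 175 and 464; 407, 464 and 401) were also lowest in that mouse. Cardiomyocyte markers were also lowest in that heart, at 41470 CPM against up to 58570 CPM in the other vehicle hearts and 61018 to 65331 CPM in β-NMN hearts, and their part in these values was not tested.

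In lungs, 0 of 17008 genes were called by edgeR (0%), and 0 of 42 members. An unadjusted p under 0.05 was reached by 1 member, beside 1.77% of all genes tested (301 of 17008). The number of members was 0 without vehicle 1, β-NMN 1 or β-NMN 2, beside 468 of 17739, 166 of 17440 and 127 of 17686 genes. Without vehicle 2 it was 4, beside 755 of 17513 genes. DESeq2 called 7 genes and 0 members. The 1 member reached with all lungs was again Slc25a25. It stood at 42.4, 40.3 and 29.0 CPM in vehicle lungs 1 to 3 and at 18, 18.9 and 28.3 CPM in β-NMN lungs (log2 fold change -0.80 ± 0.27, unadjusted p = 0.0219 by edgeR). The groups did not overlap, though β-NMN 3 came within 1 CPM of vehicle 3. Slc25a40 followed with 3.62, 1.48 and 2.95 CPM against 4.36, 5.54 and 4.81 (0.85 ± 0.38, unadjusted p = 0.061 by edgeR), and Slc25a22 with 21.7, 23.6 and 28.2 CPM against 16.5, 14.7 and 21.3 (-0.51 ± 0.23, unadjusted p = 0.0621 by edgeR). Slc25a48 and Slc25a33 completed the 5 members with the smallest p, at -1.72 ± 0.89 and -1.04 ± 0.58 on the log2 scale, and both shrank without vehicle lung 2, to -0.58 and -0.13. Slc25a33 in that lung stood at 27.7 CPM against 4.90 to 8.87 CPM in the other 5 lungs. The groups did not overlap for 8 members, beside 8.03% of all genes.

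Slc25a36 was lower without overlap in peritoneal cells and higher without overlap in hearts and in lungs (47.9, 40.2 and 47.3 CPM in vehicle, 48.6, 65.4 and 54.9 CPM in β-NMN lungs); that difference between cells and organs was not tested. Between heart and lung, the β-NMN effect was tested as an interaction in 43 members with edgeR. None was called (0 of 18318 genes, 0%). At an unadjusted p under 0.05 stood Slc25a28 alone, with a difference of 0.71 (unadjusted p = 0.0468 by edgeR), beside 4.35% of all genes. None of the 5 ratios passed in hearts or lungs, where 3 against 3 mice cannot give an exact p under 0.1. The ratio of Slc25a24 to Slc25a25 in lungs was 0.869 to 1.11 in vehicle and 1.38 to 2.83 in β-NMN mice (log2 difference 0.96, exact permutation p = 0.1, adjusted 0.25).

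**Figure D4:**
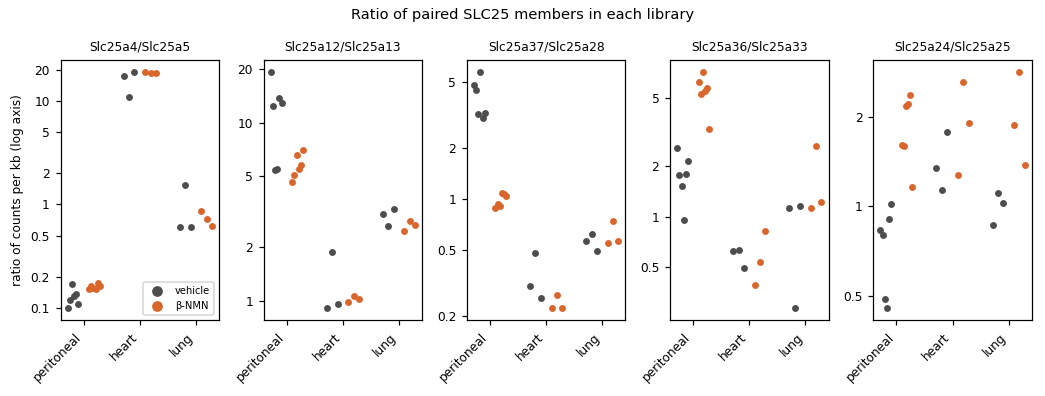
The 5 ratios of paired carriers (counts per kilobase, log axis) in each library of vehicle and β-NMN mice. In peritoneal cells Slc25a37 to Slc25a28 ranged from 3.03 to 5.74 in vehicle and from 0.88 to 1.09 in β-NMN libraries, and Slc25a36 to Slc25a33 and Slc25a24 to Slc25a25 were higher in every β-NMN library.

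The contrast of heart with lung over the same 6 mice gave the tissue pattern of the family. Of 43 members tested, 32 were called by edgeR, 18 higher in heart and 14 higher in lung, beside 64.8% of all 18318 genes (28.9% higher and 35.9% lower in heart). The split depended on scaling: with total counts as library size in place of TMM the median over all genes moved from -0.14 to -0.82, and 30 members were called, 12 higher and 18 lower in heart, beside 70.2% of all genes. Under that setting Slc25a5, Slc25a15, Slc25a23, Slc25a39, Slc25a40 and Slc25a44 lost their call as higher in heart, and Slc25a28, Slc25a32, Slc25a36 and Slc25a51 gained a call as lower. The members described next kept their direction and call, but for Slc25a5 and Slc25a39. The values given below come from a fit that did not use the pairing of organs by mouse. A fit with the mouse as a block called 35 members, beside 61.2% of all genes, with a smallest member adjusted p of 1.49e-06 by edgeR. Leaving out vehicle mouse 2 gave 38, beside 75.1%, and leaving out any other mouse 29 to 31, beside 54.2% to 58.9%. The contrast of vehicle mice only called 24, beside 51.0%. There Slc25a5, Slc25a15, Slc25a17, Slc25a24, Slc25a25, Slc25a35, Slc25a39 and Slc25a53 lost their call.

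Slc25a4 (chr8:46206797-46211284) had the largest difference, 5954 ± 1196 CPM in heart against 151 ± 9.03 CPM in lung (SD, n = 6 each), a log2 difference of 5.29 ± 0.22 (edgeR adjusted p = 5.93e-09). It was higher in the heart of 6 of 6 mice. Next came Slc25a34 (394 ± 111 against 11.3 ± 4.23 CPM) at 5.12, Slc25a13 (151 ± 44.4 against 4.84 ± 0.546 CPM) at 4.95, Slc25a12 (305 ± 35.8 against 26.6 ± 4.79 CPM) at 3.52 and Slc25a11 (482 ± 106 against 45 ± 5.79 CPM) at 3.41 on the log2 scale. Thus both aspartate/glutamate carriers and the oxoglutarate carrier, the membrane steps of the malate-aspartate shuttle, were over 10-fold higher in heart on TMM scaling (log2 differences of 4.24, 2.82 and 2.7 for Slc25a13, Slc25a12 and Slc25a11 on total counts). Of 6 enzymes of the aspartate-malate and glycerophosphate shuttles, 5 were called higher in heart on TMM scaling, beside 28.9% of all genes. The carnitine carrier Slc25a20 differed by 2.66, the phosphate carrier Slc25a3 by 2.63, the S-adenosylmethionine carrier Slc25a26 by 2.39, the coenzyme A carrier Slc25a42 by 2.19 and the glutamate carrier Slc25a22 by 1.89. Slc25a5 differed by 0.75 ± 0.24 (edgeR adjusted p = 0.0161), at 242 ± 16.2 CPM in heart and 144 ± 47.1 CPM in lung, where vehicle 2 had 61.6 CPM, and was not called without β-NMN mouse 1 or 2. On the same scaling, all 17 genes of the mitochondrial yardstick list were called higher in heart, with a median of 2.04, beside that same share and a median of -0.14 over all genes.

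Of the members higher in lung at an average of at least 0 on the log2 CPM scale, the glutamate carrier Slc25a18 had the largest difference, at 0.536 ± 0.259 CPM in heart and 2.72 ± 1.53 CPM in lung (log2 difference -2.25 ± 0.42, edgeR adjusted p = 0.000538). The dicarboxylate carrier Slc25a10 stood at 15.4 ± 2.38 and 65.8 ± 15.8 CPM (-2.10 ± 0.20, edgeR adjusted p = 3.03e-06), and the citrate carrier Slc25a1, which exports citrate for fatty acid synthesis, at 11.3 ± 2.95 and 44.8 ± 7.27 CPM (-1.98 ± 0.19, edgeR adjusted p = 3.13e-06). These were among the carriers at which heart and lung differed in the direction opposite to Slc25a4. Slc25a14, Slc25a29, Slc25a35, Slc25a45, Slc25a53, Slc25a17 and Slc25a37 followed at -1.40, -1.10, -0.93, -0.92, -0.89, -0.85 and -0.79 on the log2 scale; Slc25a35 shares 31.3% of its exons with a neighbouring gene. Slc25a37 had 26.7 ± 6.18 CPM in heart and 46.3 ± 15.5 CPM in lung, with 77.9 CPM in vehicle lung 2 and 38.7 to 41.2 CPM in the other 5. Erythroid markers ranged from 1306 to 5279 CPM in vehicle lungs, highest in vehicle 2, and their part in that level was not tested. Slc25a48 and Slc25a43, named after their values were seen, were lower in level than these. Slc25a48 differed by -4.55 ± 0.94 on 0 to 11 counts per vehicle heart, 0 to 1 per β-NMN heart, 19 to 31 per vehicle lung and 5 to 27 per β-NMN lung, and Slc25a43 by -2.38 ± 0.35 (0.237 ± 0.0786 CPM in heart, 1.26 ± 0.376 CPM in lung). Of the members that rose in peritoneal cells, 4 were higher in heart (Slc25a11, Slc25a13, Slc25a22 and Slc25a39) and 5 higher in lung (Slc25a10, Slc25a17, Slc25a24, Slc25a43 and Slc25a45). The tissue call of Slc25a24 was lost in 4 of the 6 fits that left out 1 mouse.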

How the data were processed

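Poly(A)-selected RNA from 12 peritoneal cell, 6 heart and 6 lung samples was sequenced. The authors deposited 2 tables of raw counts per gene, made per the labels and methods with STAR (version 2.7.3a in the submitters' processing notes; a different one in the methods) on mm10 and featureCounts 2.0.0; the strand setting and the treatment of reads that match several genes are not stated in the sources. Counts were analysed with edgeR 4.0.16 in R 4.3.3: genes were filtered with filterByExpr (minimum count 10), scaled by TMM and tested with the quasi-likelihood F test, with Benjamini-Hochberg adjustment over all genes tested and a call at an adjusted p below 0.05. Peritoneal cells, hearts and lungs were each fitted alone for β-NMN against vehicle. Hearts and lungs were fitted jointly for heart against lung and the interaction, on group means without a term for the mouse. CPM were computed on TMM library sizes of each table on its own, and exon lengths and coordinates came from GENCODE M21 (GRCm38). Ratios of counts per kilobase (0.5 reads added) were compared by two-sided exact permutation tests on log2 values, adjusted over 15 tests. DESeq2 1.42.0 and other filters, scalings, subsets and blocks were tried as alternatives.

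Replicates are separate mice per the labels. Libraries with the same replicate number correlated at -0.18 to 0.12 in peritoneal cells, 0.09 to 0.20 in hearts and -0.58 to 0.36 in lungs, so numbers were not used as pairs. Heart and lung of one mouse are paired by the labels. Counting error at low counts limits the precision of lung vehicle 2 most, the library with the fewest counts.

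Values are given for the members of the 5 ratios and a fixed list of carriers, up to 8 called members in each direction with the largest fold changes and a mean of 1 log2 CPM or more, or, where none was called, the 5 with the smallest unadjusted p; for heart against lung, up to 10 called members in each direction at a mean log2 CPM of 0 or more. Other members were named after their values were seen. The members and gene lists were chosen with earlier results of these data known, and the 8 motifs after the windows were read. The scripts were tested on simulated data. Single values of 1 member and of some listed genes are not reported here.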

Additional observations from a re-analysis of the deposited data

Results flagged for a closer look

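In 9 of 64 groups of 6 peritoneal libraries, 1 library lay far from the others by Dixon's criterion; chance flags about 1 in 20 groups. Vehicle 3 was the highest of its group for Slc25a4 at 37.3 CPM, for Slc25a10 at 6.20 CPM, for Slc25a17 at 17.2 CPM and for Slc25a39 at 24.9 CPM. Vehicle 4 was the highest for Slc25a33 at 7.03 CPM. β-NMN 6 was the highest of its group for Slc25a12 at 68.6 CPM, for Slc25a25 at 28.6 CPM and for Slc25a33 at 1.49 CPM. β-NMN 4 was the lowest for Slc25a53 at 0.939 CPM. Vehicle 3 also held the highest fibroblast marker sum, 956 CPM, and its part in these values was not tested.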

How the results depend on the processing

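The number of peritoneal members called was 20 and lay between 19 and 26 when 1 library was left out (26 without vehicle 3, beside 51.7% of all genes). It was 13 in the libraries over 70000000 counts (30.5% of all genes) and 10 in those below (27.9%), where fewer samples entered, and 14 of 47 without the low-count filter (14.2%), where more genes were tested. The log2 fold change of Slc25a1, -0.01, changed sign to 0.023 with DESeq2 size factors, 0.023 without the filter, 0.028 with DESeq2, 0.022 with the replicate block, 0.24 over 70000000 counts, 0.055 with depth class as a term and 0.037 without vehicle 3 and 4; it spanned -0.049 to 0.070 with 1 library left out. Slc25a5 reached 0.23 over 70000000 counts and spanned -0.11 to 0.0081. Slc25a12 was at 0.055 with the replicate block, 0.017 under 70000000 counts and 0.0036 with the depth term, and spanned -0.11 to 0.092. Slc25a15 was at 0.074 under 70000000 counts, 0.00051 with the depth term and 0.24 without vehicle 3 and 4, and spanned -0.15 to 0.063. With 1 library left out, the log2 differences of the ratios spanned 0.276 to 0.435 for Slc25a4 to Slc25a5 in peritoneal cells, -0.411 to 0.26 for the same ratio in lungs, -0.399 to 0.129 for Slc25a12 to Slc25a13 in hearts and -0.33 to 0.201 for Slc25a36 to Slc25a33 in hearts. With the replicate block, which the correlations gave no ground for, the peritoneal ratios kept their size and missed the threshold (1.67 for Slc25a36 to Slc25a33, -2.01 for Slc25a37 to Slc25a28 and 1.33 for Slc25a24 to Slc25a25, each adjusted p = 0.117 by exact permutation; 0.35 for Slc25a4 to Slc25a5, adjusted 0.188). As 6 pairs cannot give an exact p under 0.03125, no ratio could pass after adjustment, and this says nothing about stability. With the block 20 members were called, Slc25a29 among them, beside 39.8% of all genes. The summed CPM of the vehicle lungs was 1882 on total counts, against 1550. The cause was not tested. The splits by depth, the depth term, the fit without vehicle 3 and 4 and the total-count scaling of heart against lung were chosen after seeing the data. Low counts in the lungs limit members of low level.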
